A study of Rattus norvegicus with 13 samples.

Results

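The genes described here are those whose symbol begins with Kcn, the naming root of potassium channel subunits and of proteins that assemble with them. The table of hypothalamic RNA held 93 such rows for 91 symbols, and 73 symbols whose mean across the rats reached 0.5 FPKM were taken as members, out of 17366 rows in all. Where a symbol had several rows, the row with the highest mean was used. FPKM is the number of sequenced fragments per kilobase of transcript, scaled to sequencing depth, so levels can be set side by side between genes. The tissue was the whole hypothalamus of Rattus norvegicus, from 7 rats fed standard chow, with 0.30% fructose, and 6 rats fed a chow with 55% fructose. Both groups were put on their diet at postnatal day 25, housed in pairs, fasted overnight from day 79 and killed on day 80, 1 h after glucose (2 g per kg) or saline was injected into the abdomen. The labels do not say which injection or cage belonged to each of the 13 rats, nor their sex or strain.

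Potassium channels let potassium leave the cell, or hold the membrane near rest, and so set the resting potential of a neuron, the length of its action potentials and the rate at which it fires. Voltage-gated channels open on depolarisation, inward rectifiers and tandem-pore channels carry current near rest, and other classes open with intracellular calcium or sodium. In the hypothalamus, inward rectifiers coupled to G proteins carry inhibition by peptides and GABA, and the ATP-sensitive channel links firing of glucose-sensing neurons to metabolism. Accessory subunits do not conduct but change the trafficking and gating of the channels they bind.

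Total FPKM per rat lay between 556902 and 608058. All 20 genes of a list of hypothalamic markers had a mean above 0, from 0.606 FPKM (Agrp) to 4362 FPKM (Pmch). Agrp, Nr5a1 and Ghrh were above 0 in 12 of the 13 rats. The level of that list (mean log2(FPKM + 0.5)) was 3.77 ± 0.66 in the chow group (SD, n = 7) and 3.53 ± 0.90 in the fructose group (SD, n = 6, exact two-sided permutation p = 0.569, adjusted p = 0.610 over 15 lists). Lists for neighbouring tissue differed more between diets. The level of 18 detected thalamic markers was lower on fructose (4.97 ± 0.39 against 4.11 ± 0.58, exact permutation p = 0.00991, adjusted p = 0.0297), that of 18 markers of midbrain dopamine neurons was higher in all 6 fructose rats than in any chow rat (1.82 ± 0.23 against 3.57 ± 0.43, exact permutation p = 0.000583, adjusted p = 0.00437), and that of 10 blood cell genes likewise (1.83 ± 0.18 against 2.82 ± 0.41, with the same p). Genes of the meninges and fibroblasts were higher as well (1.44 ± 0.22 against 2.18 ± 0.49, exact permutation p = 0.00641, adjusted p = 0.0297). The thalamus and the midbrain border the hypothalamus, and the share of either in each sample was not measured. The cause of these list differences was not tested.

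All potassium channel classes were present in the tissue. Errors are SD on FPKM and list levels (n = 7 chow and 6 fructose rats) and SE on log2 fold changes, which are fructose minus chow on log2(FPKM + 0.5). Summed over members, chow rats had 1271 ± 130 FPKM (SD, n = 7), fructose rats had 1107 ± 137 FPKM (SD, n = 6), and 2 of 6 fructose rats lay below all chow rats. The mean over all rats was at least 10 FPKM for 33 members and under 1 FPKM for 3. The 10 most abundant held 46.8% of the summed mean, led by Kcnc2 (78.4 FPKM), Kcnab2 (75.8 FPKM), Kcnc1 (67.0 FPKM), Kcna6 (62.2 FPKM) and Kcnj10 (57.5 FPKM). By class, accessory subunits made up 21.5% ± 0.94 of the summed FPKM on chow and 20.9% ± 0.89 on fructose, the Kcnc genes 20.3% ± 0.99 and 19.1% ± 1.34, and the inward rectifiers 18.3% ± 0.64 and 19.0% ± 0.81. No class differed in share by much more than 1 percentage point between diets.

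**Figure D1:**
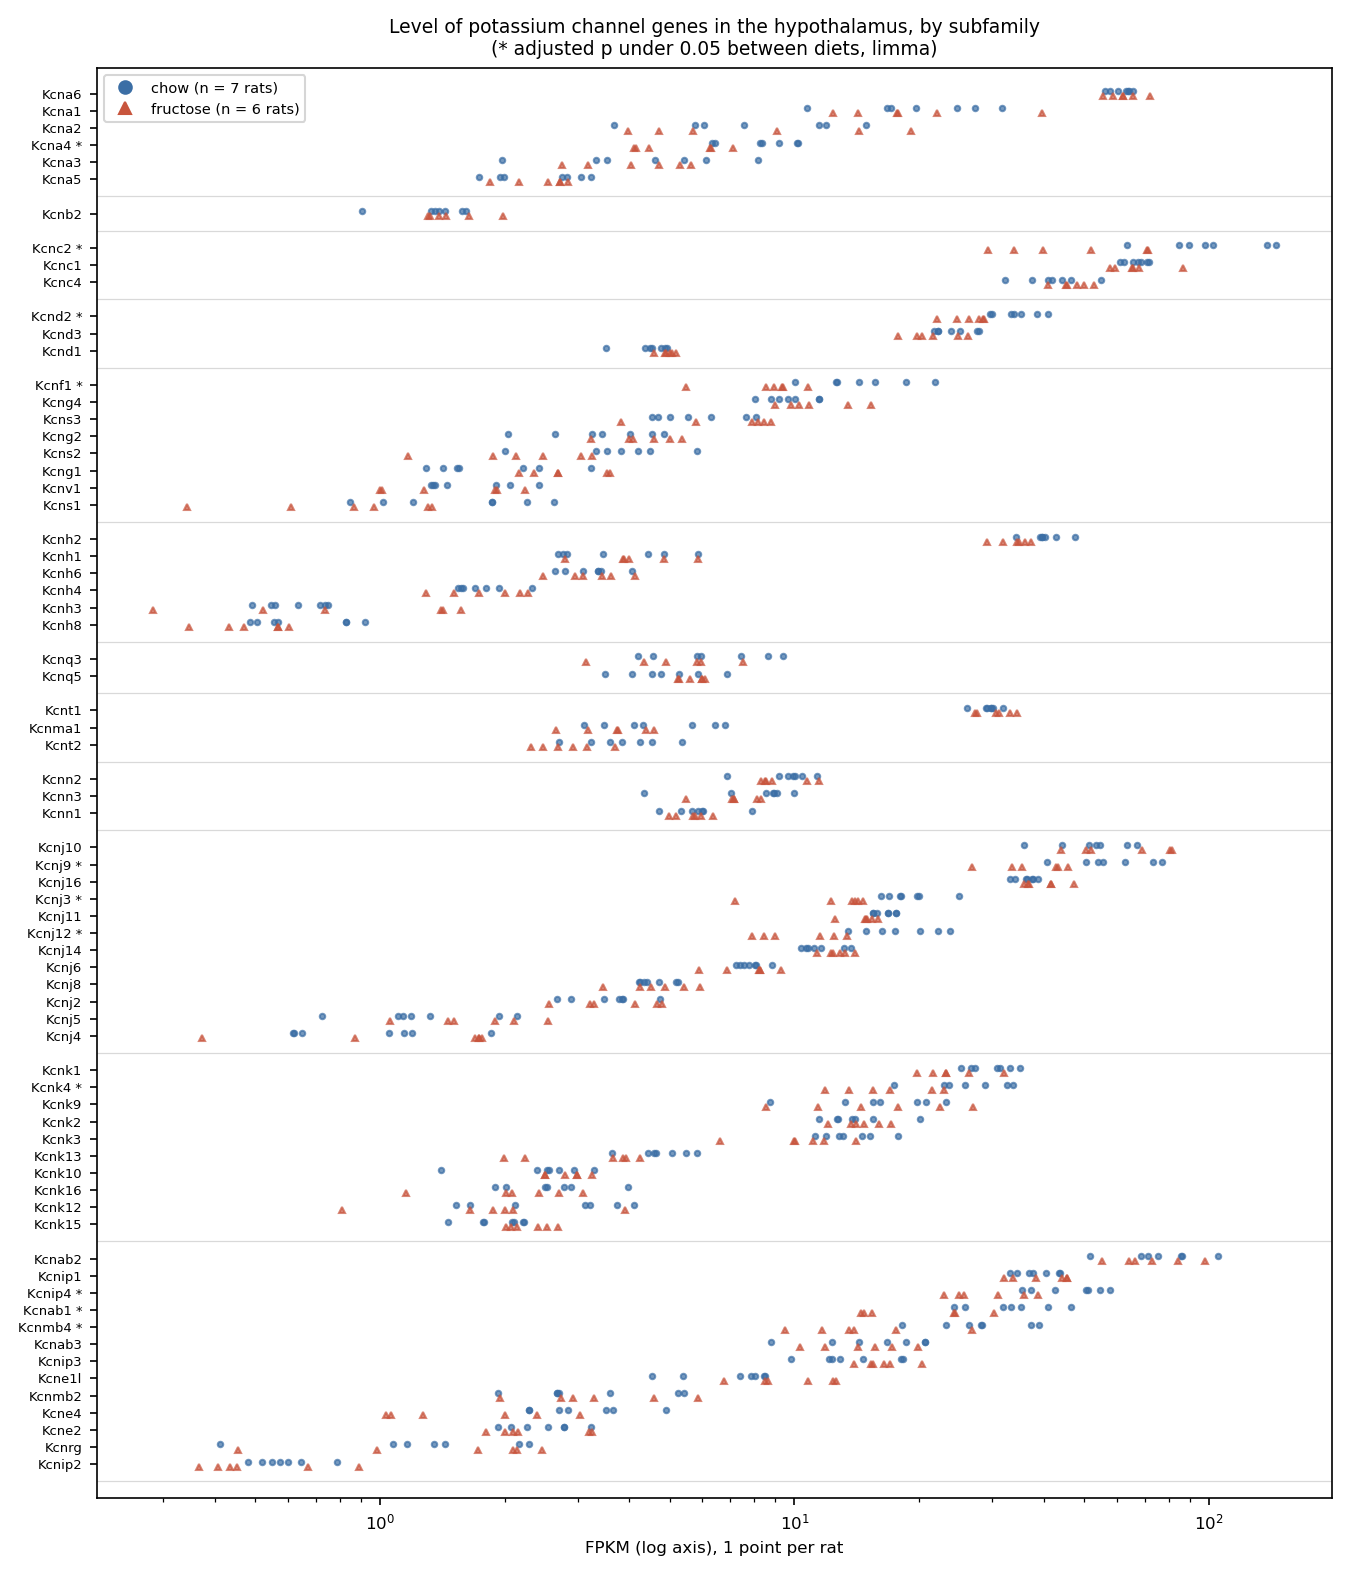
FPKM (log axis) of 70 of the 73 members in each rat, grouped by subfamily and ordered by mean level within it. Circles are the 7 chow rats and triangles the 6 fructose rats, and an asterisk marks the 11 members with an adjusted p under 0.05 between diets. Means run from 0.567 FPKM (Kcnip2) to 78.4 FPKM (Kcnc2).

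The minimum of 0.5 FPKM left out 18 symbols. Just inside it were Kcnip2 (0.567 FPKM) and Kcnh8 (0.590 FPKM), and just outside it Kcnj13 (0.490 FPKM), Kcnh7 (0.475 FPKM) and Kcnh5 (0.469 FPKM). Kcna10 and Kcnk6 were listed at 0 in all 13 rats. Kcnq1, best known from heart and epithelia, stood at 0.108 FPKM, Kcnn4, of blood and immune cells, at 0.282 FPKM, and Kcnj1, of kidney, at 0.0473 FPKM.

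The design asks which channel transcripts differ after a diet rich in fructose. Transcripts of 11 of the 73 members (15.1%) fell under fructose, 0 rose, and 62 missed the threshold (limma, adjusted p under 0.05). They were the fast repolarising channel gene Kcnc2, the A-type genes Kcnd2 and Kcna4, the modifier Kcnf1, the rectifiers Kcnj3, Kcnj9 and Kcnj12, the leak channel Kcnk4 and the accessory genes Kcnmb4, Kcnab1 and Kcnip4. Over all 11837 rows tested, 3.94% were called, 2.27% lower and 1.66% higher on fructose. At an unadjusted p under 0.05 stood 22 members (20 lower, 2 higher), 30.1% against 19.2% of all rows. The members as a whole did not shift by much: the median log2 fold change was -0.05 against 0.00 over all rows, and 42 of 73 (57.5%) were below 0 against 49.7% of all rows. The calls were therefore a minority of genes, with log2 fold changes from -1.08 to -0.38 and a median of -0.65, and 10 of the 11 had a mean of at least 10 FPKM. The number of calls ran from 1 to 12 with single rats left out. It was 0 with the level of the thalamic marker list as a covariate, a level that itself differed between diets. The exact permutation test per gene, adjusted over all rows, called 0 members and 0 rows, with 24 members at an unadjusted p under 0.05. Kcnj3 had the smallest p this test can give (exact permutation p = 0.000583), and its adjusted p was 0.0663. No row could therefore pass after adjustment, so these 0 calls are no check on the 11. In bulk tissue, fewer cells of a type and less RNA per cell cannot be told apart.

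**Figure D2:**
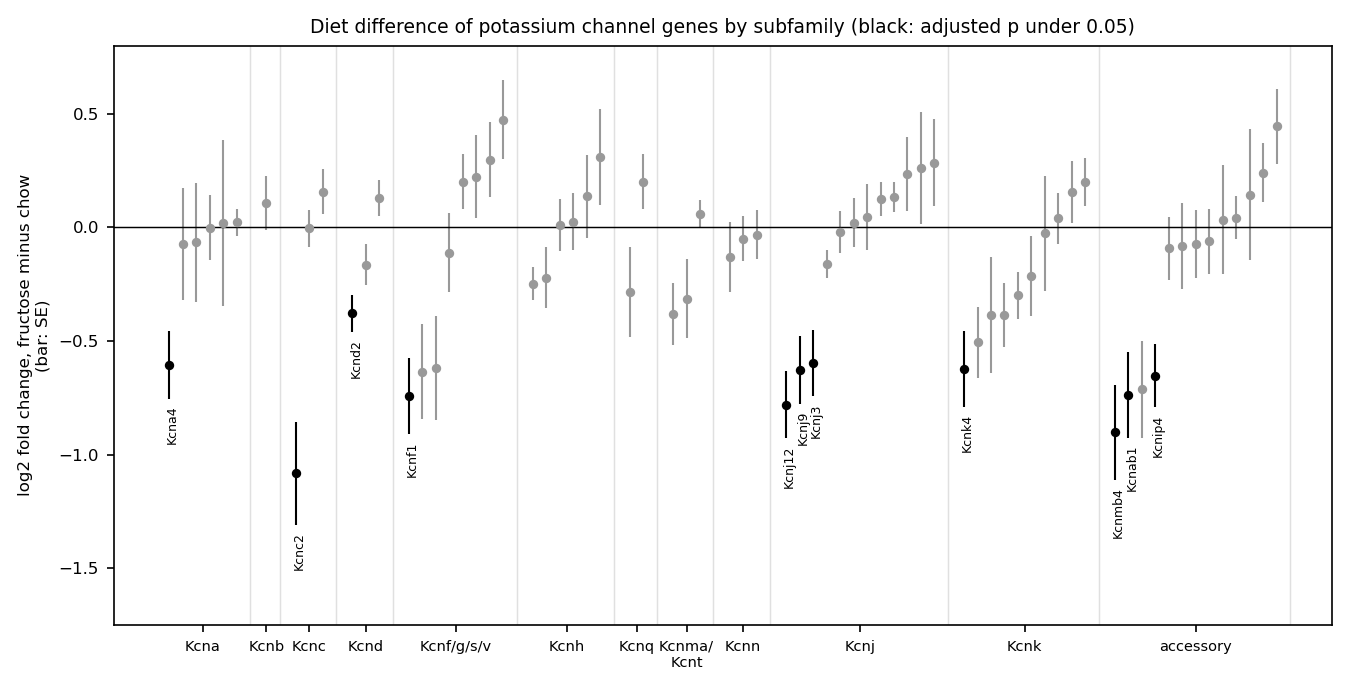
Log2 fold change (fructose minus chow) of 70 of the 73 members with its SE, by subfamily. Black points are the 11 called members, all below 0, between -1.08 (Kcnc2) and -0.38 (Kcnd2), and grey points are 59 that did not pass.

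For 3 of the genes that fell, the sequence around the start of transcription is given: Kcnc2 with the largest fall, Kcnmb4 with the next, and Kcnd2, in which the diets did not overlap. Whether these sequences had a part in the falls was not tested. They are from RefSeq on the build GRCr8, cover 250 bases before to 50 bases after the annotated start, and run 5′ to 3′ on the gene's strand. Capitals mark the GC box GGGCGG, the CCAAT box CCAAT and the TATA box TATAAA, searched on both strands (on the opposite strand a GC box reads CCGCCC), and none of these matches overlap. The windows are at chr7:49587364-49587663 (plus strand), chr4:50742235-50742534 (plus strand) and chr7:54005052-54005351 (minus strand).
Kcnc2: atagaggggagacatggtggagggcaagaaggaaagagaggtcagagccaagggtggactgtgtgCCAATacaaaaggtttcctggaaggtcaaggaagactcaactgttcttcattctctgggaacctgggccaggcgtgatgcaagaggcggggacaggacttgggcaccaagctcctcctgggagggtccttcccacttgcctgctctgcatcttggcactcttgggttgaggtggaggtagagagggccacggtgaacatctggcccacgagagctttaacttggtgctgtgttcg
Kcnd2: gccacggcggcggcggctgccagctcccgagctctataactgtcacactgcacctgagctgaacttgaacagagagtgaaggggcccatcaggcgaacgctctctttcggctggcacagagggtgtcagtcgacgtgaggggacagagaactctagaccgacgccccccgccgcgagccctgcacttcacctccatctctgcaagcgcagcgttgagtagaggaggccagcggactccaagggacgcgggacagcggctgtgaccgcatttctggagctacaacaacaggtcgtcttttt
Kcnmb4: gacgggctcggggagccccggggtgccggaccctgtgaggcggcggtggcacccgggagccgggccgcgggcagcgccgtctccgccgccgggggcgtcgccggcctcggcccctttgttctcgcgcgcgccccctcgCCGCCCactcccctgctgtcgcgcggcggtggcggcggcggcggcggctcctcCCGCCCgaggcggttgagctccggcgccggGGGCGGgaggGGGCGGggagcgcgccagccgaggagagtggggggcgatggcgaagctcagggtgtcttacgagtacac
Kcnc2 held 1 CCAAT box, Kcnd2 none of the motifs and Kcnmb4 4 GC boxes, and their GC contents were 56.0%, 61.7% and 80.7%. Promoters were matched for 47 of the 73 members, 8 of them among the 11 that fell. Each member entered once, while the full set of promoters was neither reduced to a single window per gene nor filtered by level. Where a member had several windows, the one with the lowest coordinate was taken, whatever its strand or the transcript in use. The shares below are therefore of unlike sets. A GC box was in 55.3% of the 47 and in 33.1% of all 33469 promoters of the table, a CCAAT box in 25.5% and 37.5%, and a TATA box in 0 of the 47 and 14.2%. Among the 8 that fell, GC boxes were in 2 (Kcnk4 and Kcnmb4) and CCAAT boxes in 2 (Kcnc2 and Kcnj9). The median GC content was 65.3% for the 47, 56.7% for the 8 and 51.7% for all, and none of the motifs searched was in all 8.

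Among voltage-gated channels, 3 pore-forming genes of the Kcna to Kcnd families fell and 12 did not pass. Kcnc2 encodes a fast channel of the Kv3 type, which repolarises the membrane quickly in neurons that fire at high rates. Its lowest, median and highest values were 63.6, 97.9 and 145 FPKM on chow and 29.4, 45.9 and 71.5 FPKM on fructose. The diets overlapped, with 4 of 6 fructose rats below all chow rats, and the lowest chow rat (replicate 1, 63.6 FPKM) stood below fructose replicates 1 and 5 (70.9 and 71.5 FPKM). The log2 fold change was -1.08 ± 0.23 (SE, limma adjusted p = 0.0258), the largest fall among the members and the only one of at least 2-fold. The call was kept in 7 of 13 leave-one-out fits, and its adjusted p reached 0.0657 without fructose replicate 4. Relatives in its family did not pass: Kcnc1 had 66.9 ± 4.08 FPKM on chow and 67.1 ± 10.4 FPKM on fructose (log2 fold change -0.01 ± 0.08) and Kcnc4 differed by 0.16 ± 0.10.

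Kcnd2 encodes an A-type channel of the Kv4 type, whose fast-inactivating current delays firing and damps dendritic spread. It ran from 29.7 through a median of 34.0 to 41.0 FPKM on chow and from 22.0 through 27.1 to 28.7 FPKM on fructose. Every fructose rat had less than every chow rat, as in 2 further members, and such a separation was found in 0.727% of all rows. The log2 fold change was -0.38 ± 0.08 (limma adjusted p = 0.0288), and the call held in 7 of 13 leave-one-out fits (adjusted p = 0.0703 without fructose replicate 4). Its relatives Kcnd3 (24.4 ± 2.58 against 21.8 ± 3.23 FPKM) and Kcnd1 (4.49 ± 0.48 against 4.94 ± 0.21 FPKM) did not pass.

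Kcna4, another A-type subunit, found along axons, was the member of the Kv1 family that fell. It had 6.32, 8.33 and 10.2 FPKM as lowest, median and highest values on chow and 4.11, 5.36 and 7.11 FPKM on fructose, with 5 of 6 fructose rats below all chow rats. The log2 fold change was -0.61 ± 0.15 (limma adjusted p = 0.0389), kept in 5 of 13 leave-one-out fits (adjusted p = 0.0951 without fructose replicate 6). Kcna6, the most abundant of the family, had 56.3, 63.1 and 65.8 FPKM on chow and 55.6, 62.2 and 72.3 FPKM on fructose (log2 fold change 0.02 ± 0.06, adjusted p = 0.884). Kcna1, Kcna2, Kcna3 and Kcna5 differed by -0.07 to 0.02 on the log2 scale. The delayed rectifier gene Kcnb2 (1.37 ± 0.23 against 1.51 ± 0.26 FPKM) did not pass.

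The genes Kcnf1, Kcng1, Kcng2, Kcng4, Kcns1, Kcns2, Kcns3 and Kcnv1 encode modifier subunits, which form no channel of their own but join other voltage-gated subunits. Of these 8, 1 fell and 7 did not pass. Kcnf1, the most abundant, had 10.02, 14.3 and 21.9 FPKM on chow (lowest, median, highest) and 5.48, 9.13 and 10.8 FPKM on fructose. Only fructose replicate 3 reached into the chow range, and the log2 fold change was -0.74 ± 0.17 (limma adjusted p = 0.0314, kept in 7 of 13 leave-one-out fits, 0.0706 without fructose replicate 4). The family was not uniform in sign. Kcns2 and Kcns1 had log2 fold changes of -0.63 ± 0.21 and -0.62 ± 0.23 (adjusted p = 0.106 and 0.146), and Kcng1, at 1.95 ± 0.70 FPKM on chow and 2.84 ± 0.59 FPKM on fructose, one of 0.47 ± 0.17 (adjusted p = 0.146), the highest among the 73 members. Kcng1 passed in 1 of the 13 fits with a rat left out, that without chow replicate 1, in the opposite direction to the other 11 calls there, and Kcns2 passed in that without chow replicate 6.

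Of the 6 Kcnh genes and 3 Kcnq genes none passed. Kcnh2, the ERG channel, was the most abundant of its family with 34.2, 39.6 and 47.5 FPKM on chow and 29.1, 34.6 and 37.3 FPKM on fructose. All 6 fructose rats stood below the chow mean and 2 below every chow rat, and the log2 fold change of -0.25 ± 0.07 missed the threshold (limma adjusted p = 0.0690). It passed without chow replicate 6 (adjusted p = 0.0386) and with array weights (adjusted p = 0.0260). Kcnh1, Kcnh3, Kcnh4, Kcnh6 and Kcnh8 lay between 0.590 and 4.01 FPKM. Kcnq3 and Kcnq5 encode subunits of the M-current, which muscarinic receptors shut off. Kcnq3 had 6.57 ± 1.98 against 5.27 ± 1.51 FPKM, with a log2 fold change of -0.29 ± 0.20, and Kcnq5 differed by 0.20 ± 0.12.

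Channels opened by calcium or sodium gave 0 calls among 6 pore-forming genes. Kcnt1, a sodium-activated channel, ran from 26.1 through 29.8 to 31.8 FPKM on chow and from 27.3 through 30.9 to 34.5 FPKM on fructose (log2 fold change 0.06 ± 0.06, adjusted p = 0.673). Its relative Kcnt2 had 3.93 ± 0.87 against 2.87 ± 0.50 FPKM (-0.38 ± 0.14, adjusted p = 0.133). Kcnma1, the pore of the BK channel, which opens with calcium and voltage together, had 4.84 ± 1.46 against 3.71 ± 0.72 FPKM (-0.31 ± 0.17, adjusted p = 0.346). The small-conductance genes Kcnn1, Kcnn2 and Kcnn3, which carry current of the afterhyperpolarisation, differed by -0.13 to -0.03, and Kcnn2, the most abundant, had 6.88, 9.91 and 11.4 FPKM on chow and 8.30, 8.69 and 11.5 FPKM on fructose (-0.03 ± 0.11, adjusted p = 0.913).

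The inward rectifiers held 3 of the 11 calls. Kcnj12 encodes a strong rectifier that holds the membrane near rest. Its lowest, median and highest values were 13.5, 17.5 and 23.7 FPKM on chow and 7.90, 10.3 and 13.4 FPKM on fructose. The diets did not overlap, though the lowest chow rat (13.47 FPKM) and the highest fructose rat (13.43 FPKM) nearly met. The log2 fold change was -0.78 ± 0.15 (limma adjusted p = 0.0179), and the highest adjusted p with 1 rat left out was 0.0496, without fructose replicate 4.

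Kcnj3 and Kcnj9 encode GIRK1 and GIRK3, subunits of the rectifiers that G protein-coupled receptors open. Kcnj3 ran from 16.1 through 18.1 to 25.0 FPKM on chow and from 7.18 through 13.9 to 14.6 FPKM on fructose, with no overlap and with fructose replicate 2 far below the other 5 fructose rats. Its log2 fold change was -0.60 ± 0.15 (limma adjusted p = 0.0383, 0.0838 without fructose replicate 4, kept in 6 of 13 leave-one-out fits). Kcnj9 had 40.7, 55.6 and 77.1 FPKM on chow and 26.8, 39.1 and 45.9 FPKM on fructose, with 3 of 6 fructose rats below all chow rats. It changed by -0.63 ± 0.15 (limma adjusted p = 0.0353, 0.0875 without fructose replicate 4, kept in 5 of 13 leave-one-out fits). The remaining subunits of this group did not pass: Kcnj6 (GIRK2), which midbrain dopamine neurons use, had 7.85 ± 0.54 against 7.80 ± 1.2 FPKM, and Kcnj5 (GIRK4) 1.37 ± 0.50 against 1.76 ± 0.53 FPKM.

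The other rectifiers gave no calls. Kcnj10 and Kcnj16, the glial channels that clear potassium, had 35.8, 53.4 and 67.1 against 44.0, 60.3 and 81.3 FPKM, and 36.2 ± 1.99 against 40.0 ± 4.37 FPKM (log2 fold changes 0.23 ± 0.16 and 0.13 ± 0.06, adjusted p = 0.475 and 0.277). The level of the list of 10 astrocyte markers was 7.14 ± 0.09 against 7.31 ± 0.13 (exact permutation p = 0.0122, adjusted p = 0.0306), and its part in these values was not tested. Kcnj11, the pore of the ATP-sensitive channel, was among the least variable members, at 16.5 ± 0.90 against 14.8 ± 1.17 FPKM, with 5 of 6 fructose rats below all chow rats and a log2 fold change of -0.16 ± 0.06 that did not pass (adjusted p = 0.158). Kcnj8, the pore of the same channel in pericytes, differed by 0.02 ± 0.11, and Kcnj14, Kcnj2 and Kcnj4 by 0.12, 0.05 and 0.26.

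Of the 10 tandem-pore leak channels 1 fell. Kcnk4 (TRAAK), opened by membrane stretch and by arachidonic acid, had 17.4, 25.8 and 33.7 FPKM on chow and 11.8, 16.2 and 23.0 FPKM on fructose, with 4 of 6 fructose rats below all chow rats. Its log2 fold change was -0.62 ± 0.17, at the edge of the threshold (limma adjusted p = 0.0499). The call was kept in 3 of 13 leave-one-out fits, and the adjusted p was 0.117 without fructose replicate 2. Kcnk1, the most abundant, had 25.2, 30.9 and 35.1 FPKM on chow and 19.8, 23.2 and 32.01 FPKM on fructose (-0.30 ± 0.10, adjusted p = 0.122), and passed in 1 of those 13 fits, that without fructose replicate 5. Kcnk3, an acid-sensitive TASK channel, differed by -0.39 ± 0.14 (adjusted p = 0.146), and its relative Kcnk9 had 16.8 ± 4.91 against 16.9 ± 6.91 FPKM. Kcnk13, the THIK-1 channel of microglia, had 4.81 ± 0.72 against 3.31 ± 0.95 FPKM (-0.51 ± 0.16, limma adjusted p = 0.0862) and did not pass. The level of 10 microglial markers was 4.39 ± 0.08 against 4.46 ± 0.08 (exact permutation p = 0.115), and its part in the values of Kcnk13 was not tested. Kcnk2, Kcnk10, Kcnk12, Kcnk15 and Kcnk16 lay between 2.12 and 14.4 FPKM and did not pass.

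Among 13 accessory subunits and regulators 3 fell. Kcnmb4, the neuronal beta subunit of the BK channel, had 18.2, 28.2 and 38.8 FPKM on chow and 9.49, 13.7 and 26.8 FPKM on fructose. Of the 6 fructose rats, replicate 5 alone stood within the chow range. The log2 fold change was -0.90 ± 0.21 (limma adjusted p = 0.0340, kept in 6 of 13 leave-one-out fits, 0.0842 without fructose replicate 6). In both diets it was above the BK pore gene Kcnma1 on the FPKM scale, and Kcnmb2 did not pass (3.46 ± 1.36 against 3.55 ± 1.42 FPKM).

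Kcnip4 encodes KChIP4, a calcium-binding protein that joins channels of the Kv4 type, as does the product of the partner gene Dpp10. It had 35.4, 50.5 and 57.9 FPKM on chow and 23.0, 28.3 and 38.6 FPKM on fructose, with 4 of 6 fructose rats below all chow rats, and changed by -0.65 ± 0.14 (limma adjusted p = 0.0274, kept in 6 of 13 leave-one-out fits, 0.0696 without fructose replicate 4). Kcnip1 (38.5 ± 4.16 against 39.9 ± 6.07 FPKM), Kcnip3 (14.0 ± 3.17 against 16.4 ± 2.21 FPKM) and Kcnip2 did not pass. Kcnab1, a beta subunit of Kv1 channels that speeds their inactivation, had 24.3, 33.4 and 46.6 FPKM on chow and 14.5, 19.9 and 30.4 FPKM on fructose, with 4 of 6 fructose rats below all chow rats, and changed by -0.74 ± 0.19 (limma adjusted p = 0.0439, kept in 4 of 13 leave-one-out fits, 0.108 without fructose replicate 4). Kcnab2, the most abundant beta subunit, had 51.6, 75.4 and 105 against 55.3, 69.6 and 97.9 FPKM (-0.08 ± 0.15, adjusted p = 0.842), and Kcnab3 16.0 ± 4.45 against 14.9 ± 3.48 FPKM. Kcne4 had a log2 fold change of -0.71 ± 0.21 (adjusted p = 0.0750), and Kcne1l one of 0.44 ± 0.17 (adjusted p = 0.149), with 5 of 6 fructose rats above all chow rats. Kcne2 and Kcnrg, the latter a regulator and no channel, differed by -0.06 and 0.14.

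**Figure D3:**
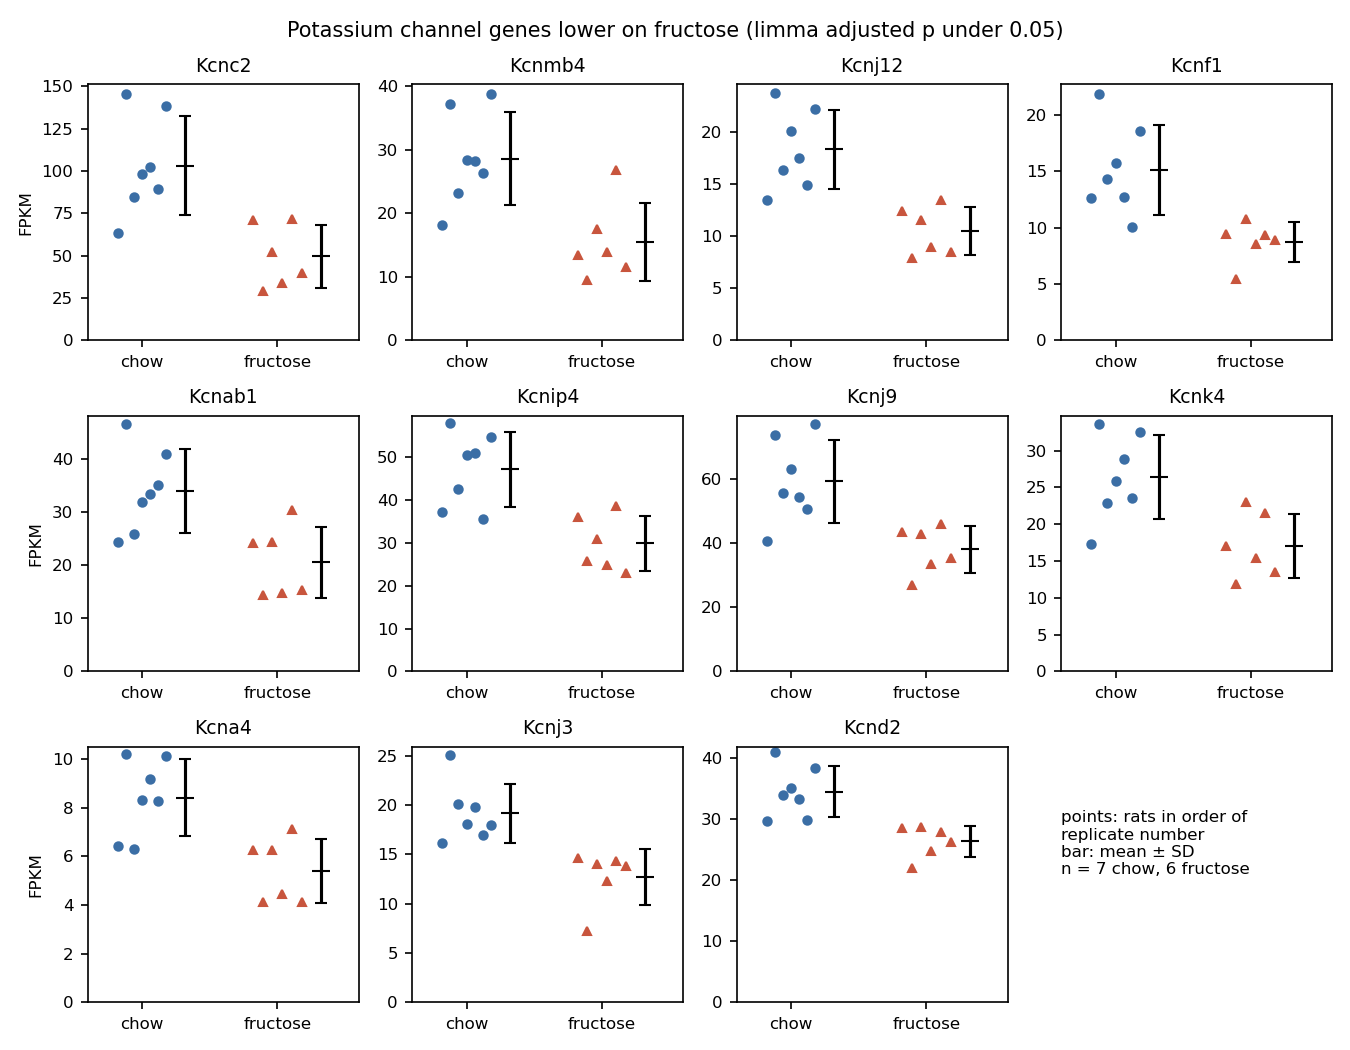
FPKM of the 11 called members in each rat, with the mean and SD of each diet beside the points (7 chow, 6 fructose). The diets do not overlap in Kcnj12, Kcnj3 and Kcnd2 and overlap in the other 8 genes.

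The channels' partners were read from a list of 31 genes, such as the cyclic nucleotide-gated Hcn genes, sulfonylurea receptors, calmodulins and scaffold proteins. The list was chosen with earlier results of these data known. Of the 25 tested, 3 fell, 0 rose and 22 did not pass, with a median log2 fold change of -0.08. Over all 11837 rows tested, 2.27% were called lower and 1.66% higher on fructose, and 0.727% had all fructose rats below all chow rats. Dpp10 fell by 0.43 on the log2 scale (-0.43 ± 0.07, limma adjusted p = 0.00988), from 28.9 ± 2.73 to 21.3 ± 2.03 FPKM, a call kept in every one of the 13 leave-one-out fits. Abcc8, the SUR1 subunit that makes Kcnj11 sensitive to sulfonylureas, went from 10.6 ± 0.94 to 8.52 ± 0.42 FPKM (-0.29 ± 0.07, adjusted p = 0.0312, kept in 6 of 13 leave-one-out fits, 0.0736 without fructose replicate 4), and for both genes the diets did not overlap. Calm2, a calmodulin gene, changed by -0.25 ± 0.07 (adjusted p = 0.0499, kept in 3 of 13 leave-one-out fits, 0.102 without fructose replicate 6).

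The same rats were low or high across the called members. Fructose replicate 2 was the lowest fructose rat in 10 of the 11 genes, and fructose replicates 2, 4 and 6 lay below all chow rats in all 11. Fructose replicate 5 was the highest fructose rat in 7 genes and within the chow range in 7. On chow, replicate 2 was the highest in 9 genes and replicate 1 the lowest in 8. The mean deviation of the 11 genes from the chow mean ran from -0.41 (replicate 1) to 0.40 (replicate 2) on chow and from -1.17 (replicate 2) to -0.31 (replicate 5) on fructose, so that the lowest chow rat stood below the highest fructose rat.

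The thalamic marker list moved with these genes. Of its 20 genes 18 were detected and none was listed at 0 in all rats, and among the detected 10 fell and 1, Calb2, rose. Their summed FPKM ranged from 1011 to 2014 on chow and from 929.8 to 1469 on fructose. Within chow the 7 rats took the same order by the list's level as by the mean deviation of the 11 channel genes, from replicate 2 at the top (list level 5.50) to replicate 1 at the bottom (4.31). On fructose the top and bottom rats, replicates 5 (4.80) and 2 (3.30), also matched, and in between replicates 1 and 3, and 4 and 6, changed places. The 11 genes were picked for their diet difference, so this order is a description of these rats. The glutamate neuron list, which shares Slc17a6 with the thalamic list, had the same top rats, chow replicate 2 (5.715) and fructose replicate 5 (5.14). Its bottom rats, chow replicate 1 (4.95) and fructose replicate 2 (4.49), matched too. The hypothalamic list was highest in chow replicate 1 (4.73) and lowest in chow replicate 5 (2.90). On fructose it was higher in replicates 4, 6 and 2 (4.62, 4.265 and 4.02) than in 1, 3 and 5 (2.54, 3.17 and 2.55). With the thalamic list's level as a covariate 0 of 73 members were called (5 at an unadjusted p under 0.05) and 28 of 11837 rows. The log2 fold changes of the 11 genes then lay between -0.28 and -0.07. That level itself differed between diets, so list and diet cannot be fully told apart in this fit. With the level of the midbrain dopamine neuron list as a covariate 0 members were called too (2 at an unadjusted p under 0.05), but that list separates the diets completely, so list and diet cannot be told apart. Whether the thalamic share of the tissue differed between rats was not measured. The list of glutamate neuron markers was lower on fructose too (5.37 ± 0.24 against 4.95 ± 0.24, exact permutation p = 0.00874, adjusted p = 0.0297). Of its 6 genes 0 were called, with log2 fold changes from -1.38 (Slc17a7) to 0.01 (Slc17a8). The part of that list in the result was not tested. The lists of GABA neuron and pan-neuronal markers did not pass (exact permutation, adjusted p = 0.602 and 0.128).

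**Figure D4:**
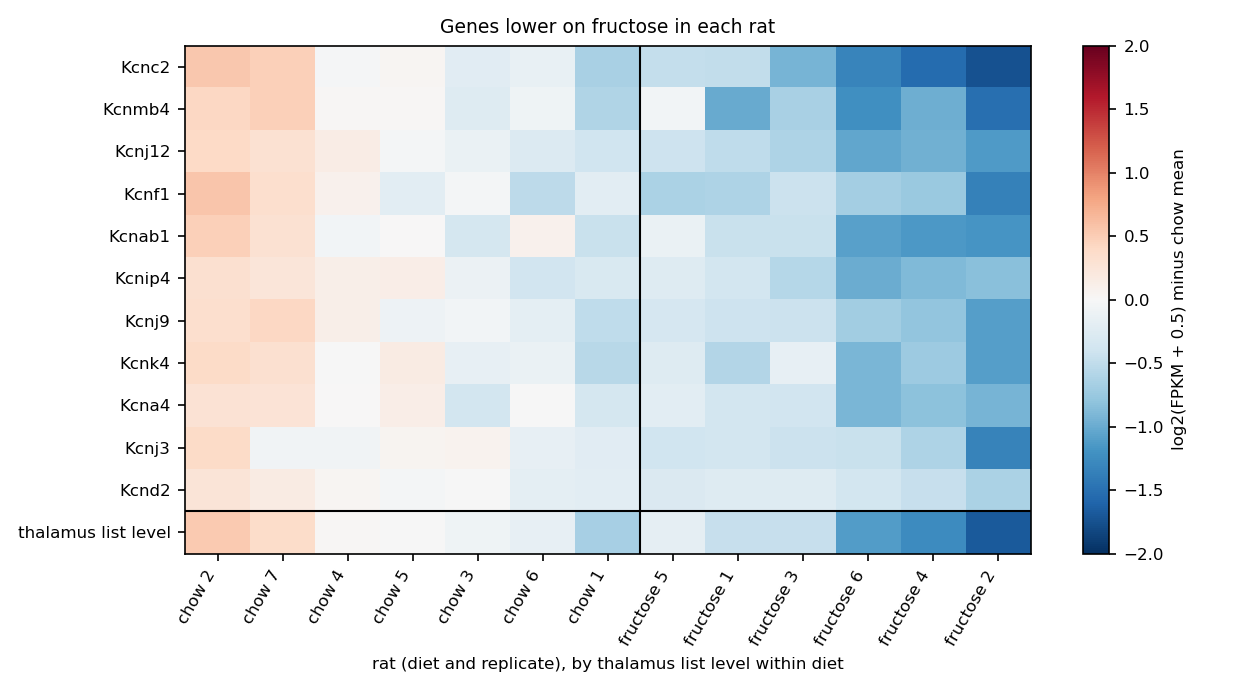
Deviation of log2(FPKM + 0.5) from the chow mean for the 11 called members and, in the bottom row, for the level of the thalamic marker list, in each rat. Rats are ordered by the list's level within each diet (vertical line between diets), and blue is below the chow mean; fructose replicates 6, 4 and 2 are the deepest blue in most rows, and chow replicate 1 is blue in all.

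Whether the 11 genes were called depended on single rats, while their fold changes stayed below 0 in all 13 leave-one-out fits. Leaving out chow replicates 1 to 7 in turn gave 12, 1, 7, 1, 4, 10 and 1 called members. Leaving out fructose replicates 1 to 6 in turn gave 10, 2, 11, 1, 12 and 1. The share of all rows called moved with it, between 0.701% without fructose replicate 4 and 7.24% without chow replicate 1. Only Kcnj12 was called in all 13 of these fits, and the 11 genes stood at an unadjusted p under 0.05 in each of them. The 11 had been picked for a low p on the same rats, so this is no independent support. The genes called on all rats lost their calls, Kcnj12 apart, when any 1 of chow replicates 2, 4 and 7 or of fructose replicates 4 and 6 was omitted. Omitting fructose replicate 2 left Kcnj12 and Kcnj3.

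**Figure D5:**
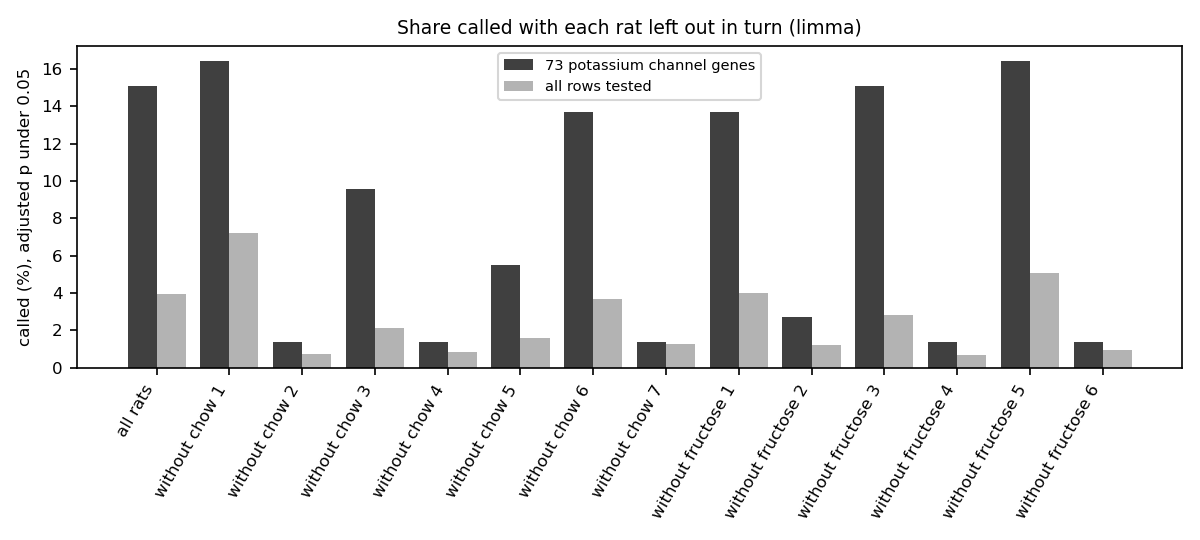
Share of the 73 members (dark bars) and of all rows tested (light bars) called at an adjusted p under 0.05, with all rats and with each rat left out in turn. The members' share lies between 1.37% and 16.4%, and that of all rows between 0.701% and 7.24%.

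The members that did not pass were in part as variable between rats of 1 diet as those that did. The coefficient of variation over the 7 chow rats had a median of 20.9% among members and of 11.1% over all rows tested. Among members it ran from 5.47% (Kcnj11) to 46.3% (Kcna2). The median level was 7.83 FPKM among members and 15.5 FPKM over all rows, and the part of level in this difference was not tested. Kcna6, Kcnt1, Kcnc1 and Kcnj16 were also steady, each under 6.10%, and Kcnc2 stood at 28.3%.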

How the data were processed

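The authors deposited a single table of FPKM values, with a column for each of 13 rats (whole hypothalamus, 7 chow and 6 fructose). The submitters' processing notes name STAR 2.3.0e, Cufflinks 2.1.1, Cuffdiff and the build rn5, without settings. How libraries were scaled to each other is not stated there. Each column was assigned to a rat by its title. Replicate numbers follow accession order and pair nothing. Low values in 1146 rows gave no firm relative depth, so depth is unknown. There were 0 identical pairs of columns, and r across genes lay between 0.970 and 0.991 (Pearson). The labels do not tie rats to cages, so whether pair-housed rats were independent is unknown.

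Rows with a mean of at least 0.5 FPKM (11837) were tested on log2(FPKM + 0.5) with limma 3.58.1 in R 4.3.3 (trend, two-sided), with Benjamini-Hochberg adjustment over all rows; a call is an adjusted p under 0.05. Fold changes are on that log2 scale, which understates change in low genes. FPKM errors are SD and fold change errors SE. List levels and single values were compared by exact permutation over the 1716 splits of the rats, whose smallest p is 0.000583. The procedure was tested on simulated data in which genes varied independently of each other. In the real data the same rats were low or high across the called members, which that simulation did not include. Members and lists were chosen with earlier results of these data known. Genes given in full are the called members, the most abundant member of each subfamily and members whose diets do not overlap, except that some members are not reported here by name; Kcng1, Kcnj6, Kcnj11, Kcnk13 and other members are given beside them by role. Alternatives were other pseudocounts, filters, scalings, weights, tests, covariates and leaving out each rat. RefSeq tables supplied the promoters.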

Additional observations from a re-analysis of the deposited data

Results flagged for a closer look

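In 7 of the 146 groups checked (73 members in 2 diets), the highest or lowest rat stood farther from the others than Dixon's 95% critical value allows; chance flags about 1 in 20 groups. Kcna1 (39.5 FPKM against 12.4 to 22.0 in the others) and Kcnc1 (86.8 FPKM against 57.8 to 67.9) were high in fructose replicate 1. Kcnj3 was low in fructose replicate 2 (7.18 FPKM against 12.2 to 14.6) and Kcnj11 in fructose replicate 4 (12.5 FPKM against 14.8 to 15.9). On chow, Kcnb2 was low in replicate 1 (0.904 FPKM against 1.33 to 1.61), Kcnd1 low in replicate 7 (3.51 FPKM against 4.36 to 4.92) and Kcnn1 high in replicate 3 (7.90 FPKM against 4.71 to 6.01). Of these genes Kcnj3 was called between diets, and its log2 fold change was -0.45 without fructose replicate 2.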

How the results depend on the processing

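The count of 11 called members was 10 with a pseudocount of 0.1, quantile normalization, median-ratio scaling or robust empirical Bayes, and 11 with a pseudocount of 1, a minimum mean of 2 FPKM or rows of a symbol summed. The median-ratio factors lay between 1.0004 and 1.0072, and 93 rows held 91 symbols, so that scaling and the summing could change little. It was 7 with no filter on low values (14412 rows tested). By the exact permutation test it was 0 (smallest adjusted p among members 0.0663). That adjusted p goes with the smallest p the exact test can give (0.000583), so its 0 calls are no check on the count. With the thalamic list level as a covariate, itself lower on fructose, the count was 0. It was also 0 with the midbrain dopamine neuron level, which separates the diets completely and left 0 rows called. It was 15 with array weights (Kcne4, Kcnh2, Kcns1 and Kcns2 added) and 14 at an adjusted p under 0.1, and between 1 and 12 with 1 rat left out. Kcnk4 lost its call with a pseudocount of 0.1, no filter, either scaling or robust moderation, and Kcna4, Kcnj3 and Kcnab1 with no filter. No called member changed sign in any of these fits. Among members that were not called, the dopamine covariate turned Kcna6 to -0.29, and the thalamic covariate Kcnt1 to -0.042, Kcnn2 to 0.23 and Kcnab2 to 0.19; with 1 rat left out the log2 fold change ran from -0.019 to 0.056 for Kcna6, from -0.11 to 0.0075 for Kcnn2 and from -0.17 to 0.0014 for Kcnab2. The causes were not tested. The depth is unknown, so what it limits cannot be given.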

Other observations

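Some members varied widely between rats of the same diet and did not pass between diets. Kcna2, a Kv1 subunit of axons, ran from 3.67 to 14.9 FPKM on chow and from 3.97 to 19.1 FPKM on fructose. Kcna1, which assembles with it, ran from 10.7 to 31.6 FPKM on chow and from 12.4 to 39.5 FPKM on fructose. For both, chow replicate 6 was the lowest chow rat and fructose replicate 1 the highest fructose rat. Kcnab2, the beta subunit of these channels, was lowest in chow replicate 6 as well (51.7 FPKM) and highest in chow replicate 2 (105 FPKM). Their log2 fold changes between diets were 0.02 ± 0.37, -0.07 ± 0.26 and -0.08 ± 0.15, and none passed (limma adjusted p = 0.987, 0.926 and 0.842). Kcnk9, a TASK channel, ran from 8.53 FPKM in fructose replicate 2 to 27.0 FPKM in fructose replicate 1. These genes were chosen after their values were seen.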
